A study of Gallus gallus with 32 samples.

Results

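The liver of a broiler chicken packages lipid with apolipoproteins and exports it in the blood, and 7 genes of that system were followed here across diets with added arginine. They are APOB, which encodes the backbone protein of very low density lipoprotein, MTTP and TM6SF2, which act in loading that particle with lipid, the exchangeable apolipoproteins APOA1, APOA4 and APOC3, and APOH, a phospholipid-binding plasma protein. The members were taken by gene name, 7 of the 25619 genes in the table of transcript abundance. All 7 had a mean of at least 1 TPM, a length-corrected share of a library's RNA, and were among the 11339 genes tested.

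The birds were broilers of the Arbor Acres line, which is bred for meat. Liver libraries came from a control diet with 0 g/kg of added arginine and from diets labelled Arg (1.8 g/kg), 5X Arg (9 g/kg) and 10X Arg (18 g/kg), with 8 libraries per diet and 32 in all. The age and sex of the birds, the basal diet and the time on diet are not given in the sources used here. HINTW, a gene of the female W chromosome, was at 0 in 6 of 8 control libraries. At 1.8, 9 and 18 g/kg it was at 0 in 5, 4 and 5 of 8 libraries. It was detected in the others, so by this gene each diet held birds of both sexes. No label ties a library to a separate bird, so the spread behind each p-value is that between libraries and may be technical in part.

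As background, chicken liver is the main site of fatty acid synthesis in the bird, and its triglyceride leaves the hepatocyte in particles built on apolipoprotein B. MTTP, the microsomal triglyceride transfer protein, adds lipid to apolipoprotein B as it enters the endoplasmic reticulum, and TM6SF2, known from human and mouse liver, is needed for full lipidation of the particle. The exchangeable apolipoproteins move between particles in plasma, where APOA1 is the main protein of high density lipoprotein.

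The tissue label was checked against markers. All 20 listed hepatocyte markers were in the table, and their summed level ran from 96173 to 185075 TPM per control library and from 96467 to 178642 TPM in the other libraries, with RBP4 at 0 in 29 libraries and CPS1 at 1.20 TPM or less. Intestine also expresses members of this set, among them APOA4, APOB and MTTP. Of 9 listed enterocyte genes in the table, CDX1, CDX2, SI and MUC2 stood at 0 to 0.05 TPM. The other 5 were detected in every library, VIL1 at 0.14 to 6.71 TPM, CDH17 at 0.81 to 6.28, FABP2 at 2.08 to 22.0, MEP1A at 3.32 to 13.4 and ANPEP at 137 to 270 TPM. Their part in the members' values was not tested. Column sums were 998707 to 999281 TPM, and 10353 to 11678 genes reached 1 TPM per library. Sequencing depth is unknown, because TPM keep no count of reads. Control replicate 7 had the lowest median correlation with the other libraries (0.916), and several differences that rest on it are given without it as well.

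Levels differed widely between the genes, in the order APOA1, APOC3, APOH, APOA4, APOB, MTTP and TM6SF2 by mean TPM over the 32 libraries. APOA1 had a mean of 13724 ± 4215 TPM (SD, n = 32), which placed it 7th among all genes, and APOC3 stood at 10787 ± 2321 TPM, in 10th place. APOH followed at 3865 ± 596 TPM, APOA4 at 1094 ± 1234 TPM and APOB at 341 ± 84.4 TPM. The assembly genes were lowest, MTTP at 62.5 ± 13.3 TPM and TM6SF2 at 33.2 ± 11.3 TPM. Together the 7 genes took 1.71 to 4.72% of a library's TPM. The median over 8 libraries was 3.30% for the control diet, 3.08% for 1.8 g/kg, 2.63% for 9 g/kg and 2.96% for 18 g/kg.

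**Figure D1:**
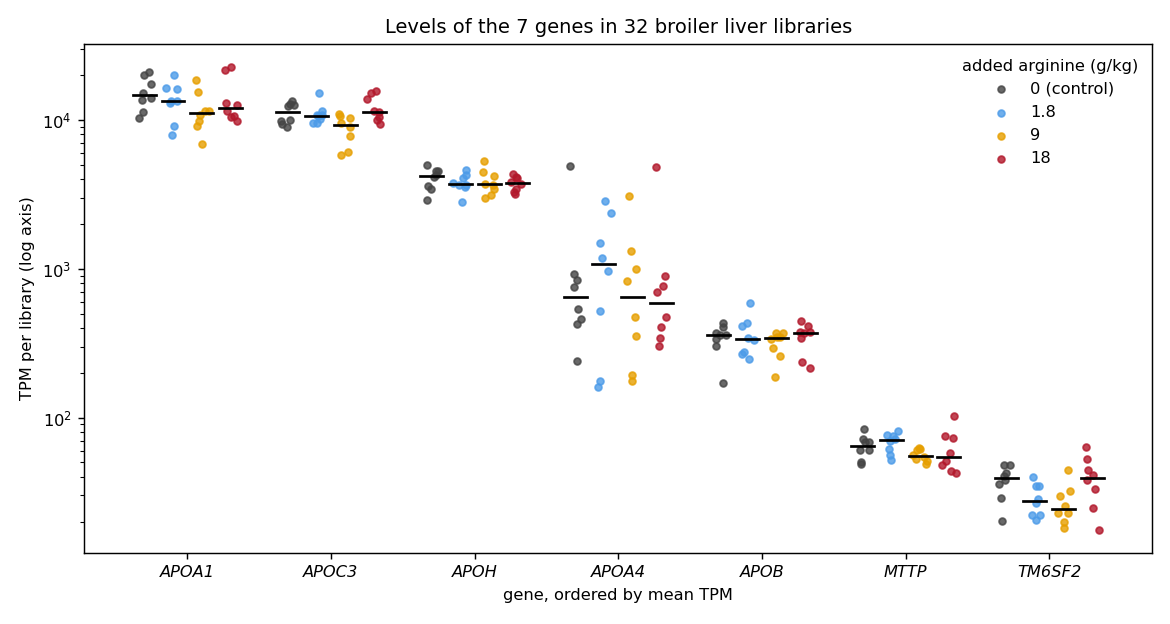
TPM of each gene (log axis) in every library, by added arginine in g/kg; each point is a library and each bar the median of 8. APOA4 spreads most, from 160 to 4943 TPM, and the 4 diets overlap for all 7 genes.

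Not every step in that order held within libraries. APOC3 exceeded APOH, and APOB exceeded MTTP, in 32 of 32 libraries, and the ranges of these neighbours did not overlap. APOA1 exceeded APOC3 in 26 of 32 libraries, with a median ratio of 1.22. By diet it did so in 8 of 8 in control and at 9 g/kg, 6 of 8 at 1.8 g/kg and 4 of 8 at 18 g/kg. Their ranges overlapped, and the order was not tested. APOH exceeded APOA4 in 29 libraries and APOA4 exceeded APOB in 26. MTTP exceeded TM6SF2 in 31, the exception being at 18 g/kg.

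The genes also varied to different extents between libraries on the same diet. The within-group standard deviation of log2(TPM + 1) was 0.23 for APOH, a smaller spread than that of most tested genes (11.2% of them had a smaller one). It was 0.28 for APOC3, 0.29 for MTTP, 0.39 for APOB, 0.43 for APOA1 and 0.44 for TM6SF2, against a median of 0.33 over all tested genes. APOA4 stood at 1.39, and 98.4% of tested genes had a smaller spread.

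Diet was then compared with control for each gene by limma on log2(TPM + 1), with p-values adjusted over all 11339 tested genes. At 9 g/kg all 7 differences were below 0, with APOC3 at 8751 ± 2019 TPM against 11185 ± 1790 in control and TM6SF2 at 27.0 ± 8.53 TPM against 37.8 ± 9.51. At 1.8 and at 18 g/kg 4 of 7 were below 0 and 3 above. Of all tested genes, 59.0, 50.6 and 55.6% were above 0 at 1.8, 9 and 18 g/kg. Without control replicate 1 the difference of APOA4 at 9 g/kg was 0.16, so the 7 of 7 did not hold without that library. The sign of APOA4 at 9 g/kg turned in 2 of 32 fits with a single library left out. No member passed the test at any dose. Limma called 0 of 7 members at each dose, as it called 0% of all tested genes, and the lowest adjusted p of a member was 0.906, for APOC3 at 9 g/kg. At an unadjusted p below 0.05 the number of members was 0 of 7 at 1.8 g/kg, 2 of 7 at 9 g/kg and 0 of 7 at 18 g/kg, against 2.34, 4.87 and 2.44% of all tested genes. The median difference of the members was -0.02, -0.24 and -0.08 at the 3 doses, beside 0.03, 0.00 and 0.02 over all tested genes. The doses share the same control libraries, so these values are not independent of each other.

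Exact permutation tests, which borrow no spread from other genes, gave 2 of 21 unadjusted p-values below 0.05 (2-sided, 12870 splits of 16 libraries), for APOC3 (p = 0.0253) and TM6SF2 (p = 0.0356) at 9 g/kg. None of the 21 passed after adjustment (lowest adjusted p = 0.333). For any difference among diets, the F test in limma gave each member an adjusted p of 1.00. APOC3 was the only member with an unadjusted p below 0.05 in that test, 1 of 7, beside 3.18% of all tested genes. A linear slope on dose gave log2 differences over 18 g/kg from -0.19 ± 0.58 (SE) for APOA4 to 0.12 ± 0.21 for TM6SF2, with an adjusted p of 1.00 by limma for every member and 0% of all tested genes called by either test. By unadjusted slope p, 2.03% of all tested genes and 0 of 7 members were below 0.05.

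**Figure D2:**
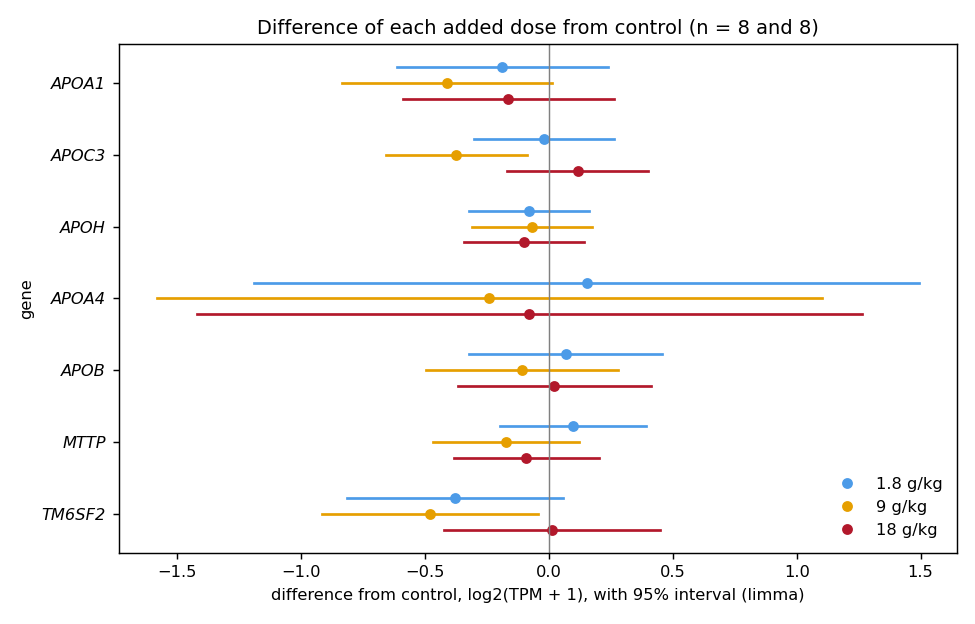
Difference of each dose from control on the log2(TPM + 1) scale (points) with 95% intervals from limma (lines), 8 libraries against 8. The intervals of APOC3 and TM6SF2 at 9 g/kg, -0.66 to -0.09 and -0.92 to -0.04, lie below 0 before adjustment over genes, and APOA4 has the widest intervals.

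Values on library composition were set beside these differences, with no test. Mitochondrially encoded transcripts had group medians of 20.3, 21.8, 22.4 and 23.0% of TPM at 0, 1.8, 9 and 18 g/kg, and summed hepatocyte markers had medians of 152604, 135487, 133133 and 124199 TPM. Much of that sum was albumin (ALB, mean 83013 TPM), and the median log2 difference of the hepatocyte genes was -0.05, -0.07 and -0.09 at the 3 doses. Summed erythrocyte markers had medians of 996, 996, 1317 and 835 TPM and endothelial markers of 133, 177, 166 and 154 TPM. The lowest endothelial sum was 40.3 TPM in control, against 122, 134 and 144 TPM at the 3 doses. The median log2 difference of the endothelial genes was 0.42, 0.45 and 0.30. Without control replicate 7, single endothelial genes ran from 0.03 to 0.48 at 1.8 g/kg, 0.11 to 0.37 at 9 g/kg and -0.09 to 0.48 at 18 g/kg. Leukocyte markers had medians of 347, 297, 484 and 397 TPM. Their sum and their single genes differed in direction at 1.8 g/kg. The median log2 difference of the leukocyte genes was 0.26, 0.33 and 0.37, with 14, 14 and 13 of 14 tested genes above 0. Without control replicate 7, single leukocyte genes ran from -0.0035 to 1.00 at 1.8 g/kg, -0.07 to 0.96 at 9 g/kg and -0.17 to 1.05 at 18 g/kg. Those of stellate cells and fibroblasts had medians of 359, 285, 250 and 298 TPM. In bulk tissue, fewer cells of a type and less RNA per cell cannot be told apart, and the part of composition in the values of single genes was not tested beyond the rescaling given in the closing section.

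APOB, the backbone of the secreted particle, ran from 170 to 432 TPM in control (median 359), 246 to 593 at 1.8 g/kg (median 336), 189 to 373 at 9 g/kg (median 343) and 214 to 445 at 18 g/kg (median 371). The diets overlapped throughout, the lowest value being control replicate 7 and the highest 1.8 g/kg replicate 3. The log2 differences were 0.07 ± 0.19, -0.11 ± 0.19 and 0.02 ± 0.19 (SE). Without control replicate 7 they were -0.07, -0.25 and -0.12, and the sign at 1.8 and 18 g/kg turned. With each of the 32 libraries left out once, the sign turned in 2 fits at 1.8 g/kg and in 5 at 18 g/kg. The intervals of the full comparison reached from -0.50 to 0.46 over the 3 doses.

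MTTP, the lipid transfer partner of APOB, ran from 48.8 to 83.6 TPM in control (median 64.5), 52.3 to 81.8 at 1.8 g/kg (median 70.7), 48.9 to 62.8 at 9 g/kg (median 55.3) and 42.5 to 102 at 18 g/kg (median 54.7). The libraries at 9 g/kg lay closest together, with an SD of 5.14 TPM against 11.6 in control, 10.5 at 1.8 g/kg and 20.5 at 18 g/kg, whose highest value, in replicate 5, was the highest of all. At 9 g/kg 8 of 8 libraries were below the control mean on the log2 scale, a position shared by 2.57% of all tested genes. The log2 differences, 0.10 ± 0.14, -0.17 ± 0.14 and -0.09 ± 0.14, did not pass, and the values at 9 g/kg lay within the control range. At 18 g/kg the difference was -0.20 without replicate 5.

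TM6SF2, the membrane protein of the endoplasmic reticulum that aids lipidation, ran from 20.3 to 48.3 TPM in control (median 39.4). It ran from 20.5 to 40.0 TPM at 1.8 g/kg (median 27.5), 18.2 to 44.6 at 9 g/kg (median 24.2) and 17.6 to 63.4 at 18 g/kg (median 39.5). At 1.8 and at 9 g/kg 7 of 8 libraries were below the control mean, where 3.84 and 9.42% of all tested genes had 7 or 8 libraries below it, while at 18 g/kg 3 of 8 were below. None of the 7 members had 7 or 8 libraries below the control mean at 18 g/kg, where 4.17% of all tested genes did. The log2 differences were -0.38 ± 0.21, -0.48 ± 0.21 and 0.01 ± 0.21 (SE), none of which passed (adjusted p = 0.956 at 9 g/kg by limma). The groups overlapped at every dose, and 18 g/kg held both the lowest and the highest library of the 32.

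APOC3, which in mammals slows the clearance of triglyceride-rich particles, ran from 8939 to 13359 TPM in control (median 11274). It ran from 9561 to 15271 at 1.8 g/kg (median 10657), from 5782 to 10970 at 9 g/kg (median 9271) and from 9382 to 15713 at 18 g/kg (median 11405). At 9 g/kg 8 of 8 libraries were below the control mean, as for 2.57% of all tested genes. Of these libraries 3 were below the lowest control library, and the groups still overlapped. At 18 g/kg 3 libraries were above the highest control library. The log2 differences were -0.02 ± 0.14, -0.38 ± 0.14 and 0.12 ± 0.14 (SE). The difference at 9 g/kg was -0.42 without control replicate 7 and -0.30 without 9 g/kg replicate 7, and did not pass in either case.

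APOA1, the most abundant of the 7, ran from 10346 to 21168 TPM in control (median 14715.5), 7880 to 20152 at 1.8 g/kg (median 13414), 6934 to 18470 at 9 g/kg (median 11170) and 9801 to 22674 at 18 g/kg (median 12061). At 9 g/kg 6 of 8 libraries were below the control mean and 3 were below the control range. At 18 g/kg, replicates 7 and 8 lay above every control library and 6 of 8 libraries were below the control mean. The log2 differences were -0.19 ± 0.21, -0.41 ± 0.21 and -0.16 ± 0.21 (SE), and none passed (lowest adjusted p = 0.956 by limma). Each interval included 0. With single libraries left out the difference ran from -0.28 (without 1.8 g/kg replicate 1) to -0.083 (without 1.8 g/kg replicate 8) at 1.8 g/kg, and from -0.27 (without 18 g/kg replicate 7) to -0.094 (without control replicate 7) at 18 g/kg.

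APOA4, which in mammals rises with lipid absorption and with lipid in the liver, ran from 240 to 4943 TPM in control (median 643), 160 to 2861 at 1.8 g/kg (median 1075), 177 to 3098 at 9 g/kg (median 648) and 303 to 4869 at 18 g/kg (median 586). The diets overlapped. Control replicate 1 was at 4943 TPM with the next control library at 922, and 18 g/kg replicate 7 was at 4869 TPM with the next at 894, while the values at 1.8 g/kg were graded. The log2 differences of 0.15 ± 0.66, -0.24 ± 0.66 and -0.08 ± 0.66 (SE) had intervals from -1.58 to 1.49 over the 3 doses. Without control replicate 1 they were 0.55, 0.16 and 0.32, and the sign at 9 and 18 g/kg turned.

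APOH, also called beta-2-glycoprotein I, ran from 2883 to 4970.5 TPM in control (median 4201), 2826 to 4629 at 1.8 g/kg (median 3731), 2979 to 5284 at 9 g/kg (median 3706) and 3172.5 to 4320 at 18 g/kg (median 3773). The diets covered much the same range. The log2 differences were -0.08 ± 0.12, -0.07 ± 0.12 and -0.10 ± 0.12 (SE), with intervals from -0.34 to 0.17, the narrowest of the 7 genes. Without control replicate 7, the highest control library, the differences were -0.035, -0.024 and -0.054.

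Whether the genes varied together between libraries was asked over the 32 libraries, after the mean of each diet had been removed from log2(TPM + 1). P-values came from 100000 permutations of libraries within diets (2-sided) and were adjusted over the 21 pairs. Of these, 4 passed by Pearson's r and 3 by Spearman's rho. No share over pairs of other genes was set beside these counts. Whether the members varied together more than other genes do was therefore not tested. APOA4 and TM6SF2 varied together (r = 0.55, permutation p = 0.00165, adjusted p = 0.0255; rho = 0.56, permutation p = 0.00141, adjusted p = 0.0296), as did APOA1 and APOA4 (r = 0.55, permutation p = 0.00243, adjusted p = 0.0255; rho = 0.52, permutation p = 0.00435, adjusted p = 0.0410). APOA1 and APOC3 did so too (r = 0.52, permutation p = 0.00466, adjusted p = 0.0326; rho = 0.50, permutation p = 0.00586, adjusted p = 0.0410). APOB and APOH ran in opposite directions by r alone (r = -0.48, permutation p = 0.0088, adjusted p = 0.0462; rho = -0.36, permutation p = 0.0523, adjusted p = 0.154). APOB and MTTP, backbone and loading protein, gave r = 0.39 (permutation p = 0.0368, adjusted p = 0.119) and rho = 0.31 (permutation p = 0.0997, adjusted p = 0.197) and did not pass.

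**Figure D3:**
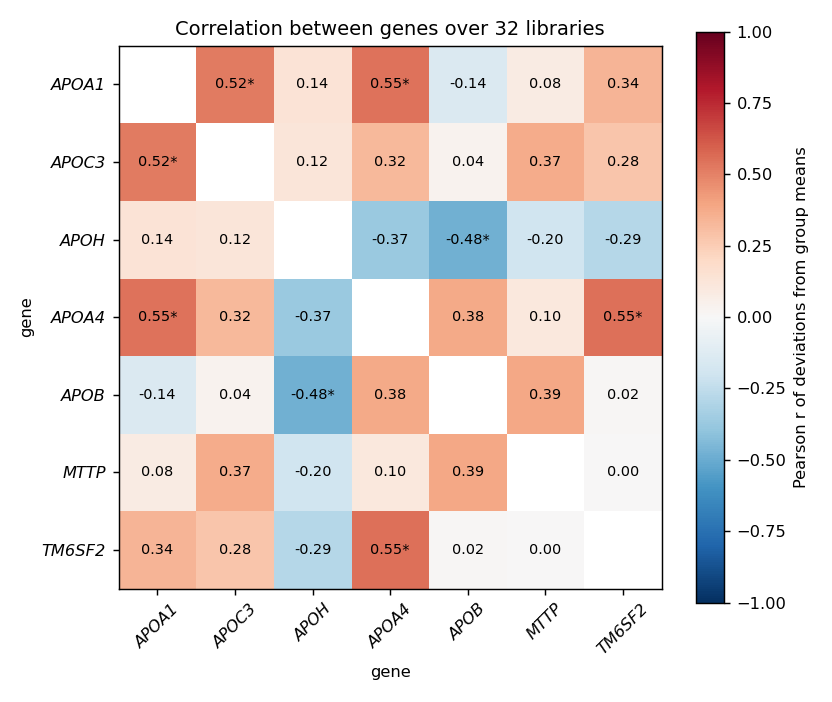
Pearson's r between each pair of the 7 genes over 32 libraries, from log2(TPM + 1) minus the mean of the diet; an asterisk marks the 4 pairs with an adjusted permutation p below 0.05. APOH has negative values with APOA4, APOB, MTTP and TM6SF2, of which the one with APOB passed.

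Within single diets of 8 libraries r ran from 0.48 to 0.70 for APOA4 and TM6SF2, from 0.40 to 0.61 for APOA1 and APOA4, from 0.25 to 0.75 for APOA1 and APOC3 and from -0.76 to -0.11 for APOB and APOH. Without the 2 libraries farthest from the median of the first gene, r was 0.50, 0.40, 0.42 and -0.29 in that order. Each pair lost its call when certain single libraries were left out, 2 of the 32 for APOA4 and TM6SF2, 3 for APOA1 and APOA4, 8 for APOA1 and APOC3 and 16 for APOB and APOH, control replicate 7 among the last. The pairs depended on scaling too. After median-ratio rescaling APOA1 and APOC3 gave r = 0.62 (adjusted permutation p = 0.00588), whereas APOA4 and TM6SF2 (r = 0.45, adjusted permutation p = 0.0828), APOA1 and APOA4 (r = 0.43, adjusted permutation p = 0.0860) and APOB and APOH (r = -0.29, adjusted permutation p = 0.281) no longer passed. In the chicken reference table (assembly GRCg7b) APOA5, APOA4, APOC3 and APOA1 stand next to each other in that order, with a microRNA gene between the last 2. APOA4 and APOC3, which adjoin, gave r = 0.32 (permutation p = 0.0873, adjusted p = 0.183) and rho = 0.30 (permutation p = 0.113, adjusted p = 0.197) and did not pass.

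**Figure D4:**
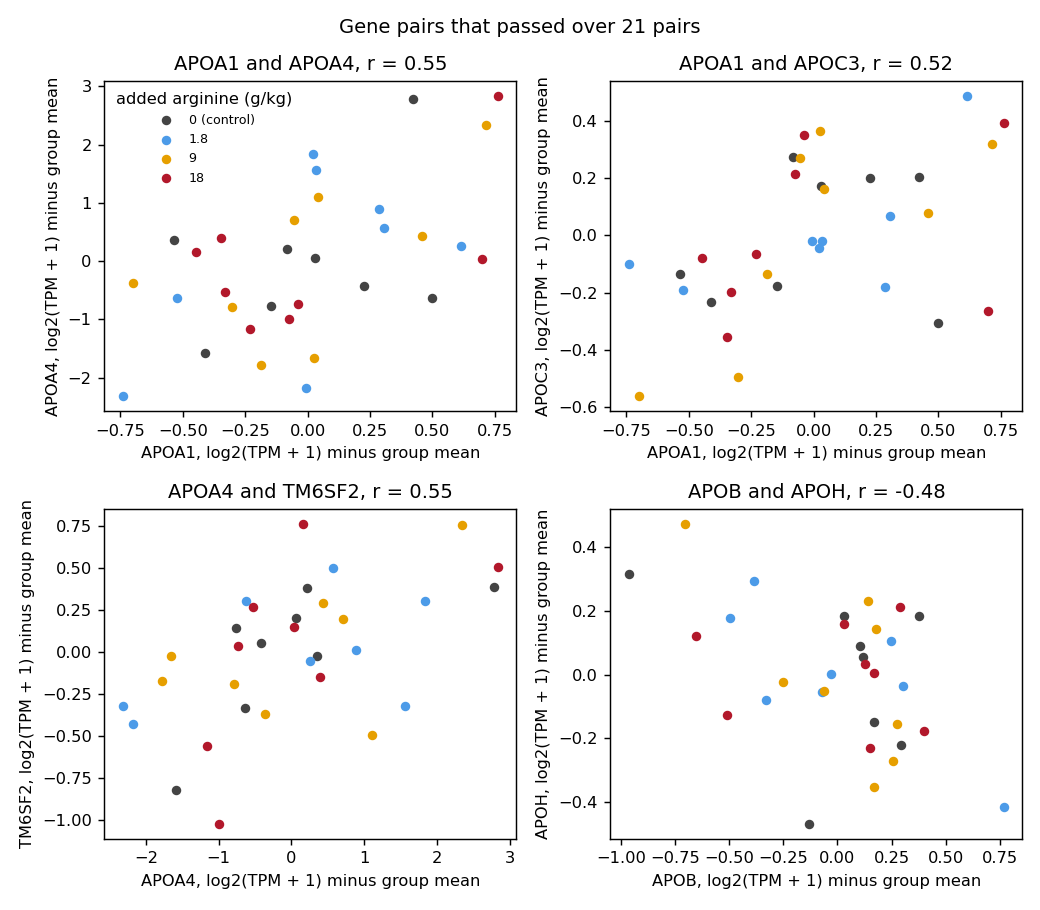
The 4 gene pairs that passed by Pearson's r, each point a library coloured by added arginine, on axes of log2(TPM + 1) minus the mean of the diet. Over all libraries r was 0.55, 0.52, 0.55 and -0.48, with lower sizes within some diets (-0.11 at 18 g/kg for APOB and APOH), and in the plot of APOB and APOH control replicate 7 is the point farthest to the left.

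Each gene was also set beside the rest of the transcriptome by the same deviations, as a description over the 32 libraries, which share their scaling. The genes named have the highest and lowest r of all tested genes, and such extremes can be large by chance. No chance level was set beside these r, and their values after rescaling are not given. The gene most like APOB was VAPB (r = 0.90, rho = 0.79), a tether of the endoplasmic reticulum. PHLDB2, ARVCF, FAM217B and SLC35F5 followed (r = 0.89 to 0.87, with rho from 0.73 to 0.86). How far these values rest on control replicate 7, where APOB was lowest, was not tested. The most unlike were PI3 and PPIB (both r = -0.74). For APOA4 the closest were TMEM41A (r = 0.88, rho = 0.83), ACACB (r = 0.87, rho = 0.78), an acetyl-CoA carboxylase, SEC16B (r = 0.87, rho = 0.81), which organises the sites where cargo leaves the endoplasmic reticulum, BBOX1 (r = 0.84, rho = 0.82), which completes carnitine synthesis, and FAM63A (r = 0.82, rho = 0.75). MED9 and LOC100858647 were the most unlike (r = -0.75 and -0.72). ACACB was low, with a mean of 1.83 TPM, and TMEM41A, like APOA4, was highest in control replicate 1. How far the values of APOA4 rest on that library and on 18 g/kg replicate 7, where APOA4 was also high, was not tested.

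The genes most like APOH included plasma proteins made by hepatocytes, PROC (protein C, r = 0.80, rho = 0.81), MST1 (r = 0.71, rho = 0.66) and GC, the vitamin D-binding protein (r = 0.70, rho = 0.66), with NDUFAF3 and LOC107056277 beside them (r = 0.71 and 0.70). SAMM50 and C11orf58 were the most unlike it (r = -0.83 and -0.81). For APOC3 they were FADS2, a fatty acid desaturase (r = 0.63, rho = 0.65), UHMK1, PDIA5, LMAN2, a cargo receptor of the secretory pathway, and P4HB (r = 0.61 to 0.60), the disulfide isomerase that is also the partner subunit of MTTP, while HAAO and FCER2 were the most unlike (both r = -0.62).

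For APOA1 the closest were PLBD2 (r = 0.71, rho = 0.78), PCYOX1, ESAM, the hepatocyte gene SERPINC1 (antithrombin, r = 0.68, rho = 0.66) and TMEM115, and the most unlike were ECHDC3 and NFS1 (r = -0.74 and -0.73). MTTP was closest to GNAL (r = 0.78, rho = 0.81), IPO8, YME1L1, ANO5 and CD151, and most unlike LOC769554 and GCAT (both r = -0.65). TM6SF2 was closest to P2RX4 (r = 0.74, rho = 0.72), IPO13, TM9SF4, CYP2J22 and POLD2, and most unlike CLYBL and ITIH3 (r = -0.74 and -0.65). None of the 7 genes was among the 5 most like another.

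Other apolipoproteins in the table were described by level. APOA2, an apolipoprotein of high density lipoprotein, had a mean of 9691 TPM and ran from 6622 to 14840 TPM over the 32 libraries. Its log2 differences were 0.19, 0.16 and 0.17 at the 3 doses, all against the same control libraries, and none passed. Without control replicate 7 they were 0.29 ± 0.16, 0.26 ± 0.16 and 0.26 ± 0.16 (SE). APOA5, an activator of lipolysis in mammals, ran from 47.6 to 365 TPM and clusterin (CLU) from 15.1 to 91.3 TPM. The mitochondrial proteins APOO and APOOL ran from 24.9 to 58.5 and from 4.56 to 16.4 TPM, and APOF from 2.03 to 17.3 TPM, with control replicate 7 highest. Of the yolk precursors that oestrogen induces in hen liver, VTG1, VTG2 and VTG3 stayed at or below 0.26 TPM, whereas APOV1 ran from 0 to 216 TPM with a median of 0.765.

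The wider pathway held 76 tested genes in lists of other apolipoproteins (7), particle assembly and export (25), remodelling and uptake in plasma (16) and transcriptional regulators (28). Limma called 0 of them at each dose, beside 0% of all tested genes, and 4, 4 and 3 of 76 had an unadjusted p below 0.05 at 1.8, 9 and 18 g/kg. That is 5.26, 5.26 and 3.95%, beside 2.34, 4.87 and 2.44% of all tested genes. List medians at 1.8, 9 and 18 g/kg were 0.13, 0.04 and 0.17 log2 for other apolipoproteins, 0.01, 0.04 and -0.02 for assembly, -0.03, -0.05 and 0.02 for remodelling and 0.01, 0.00 and 0.02 for regulators.

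CETP, which exchanges cholesteryl ester and triglyceride between particles, had the smallest unadjusted p of the 76 at every dose, and did not pass at any. It ran from 3.17 to 34.0 TPM in control (median 22.4), 15.4 to 98.2 at 1.8 g/kg (median 39.0), 21.2 to 92.1 at 9 g/kg (median 49.4) and 20.5 to 48.8 at 18 g/kg (median 39.7). The dosed libraries lay higher and overlapped the control range, with 7, 8 and 8 of 8 above the control mean. Of all tested genes, 9.32% had 7 or 8 libraries on 1 side of it at 1.8 g/kg, and 1.53 and 1.14% had 8 of 8 above it at 9 and 18 g/kg. The log2 differences were 1.09 ± 0.35, 1.22 ± 0.35 and 0.96 ± 0.35 (SE; adjusted p = 1.00, 0.761 and 1.00 by limma), all 3 against the same control libraries. Without control replicate 7 they were 0.76, 0.90 and 0.63.

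The endothelial lipase gene LIPG was low, with a control median of 1.41 TPM and a control maximum of 17.4 TPM in replicate 4. Its medians at 1.8, 9 and 18 g/kg were 0.505, 0.655 and 0.87 TPM. The log2 differences of LIPG were -0.93 ± 0.34 at 1.8 g/kg and -0.92 ± 0.34 at 9 g/kg (SE), and how far they rest on control replicate 4 is not given. Also named by unadjusted p were APOF at 1.8 g/kg (0.77 ± 0.30, and 1.04 without control replicate 7), and FOXO3 (-0.47 ± 0.20, and -0.33 without control replicate 7) and PRAP1 (0.61 ± 0.27) at 18 g/kg. None of these passed (adjusted p from 0.906 to 1.00 by limma).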

How the data were processed

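Liver messenger RNA was enriched by poly(A) selection, made into stranded libraries and read as pairs, per the labels' protocols. The submitters' processing notes name fastp, HISAT2, StringTie and RSEM, and genome build and versions are not given in the sources used here. The authors deposited 1 table of TPM with 32 library columns. TPM are shares, so an abundant transcript that moves shifts all others. Values were taken as log2(TPM + 1), the test took genes whose mean reached 1 TPM, and a model with 1 mean per diet was fitted in limma 3.58.1 (R 4.3.3, eBayes with trend), 2-sided, with Benjamini-Hochberg adjustment and a threshold of 0.05. The procedure was tested on simulated data. The members, gene lists and tests were chosen with earlier results of these data known. Named genes were the 7 members, the 5 most and 2 least correlated genes of each, per dose the 3 pathway genes with the smallest p, and further apolipoproteins and yolk precursors by level; 1 gene that the rule names is not reported here. Alternatives were a pseudocount of 0.1, no filter, 2 rescalings, the replicate number as a block, the W-linked gene HINTW as covariate and each library left out. All 7 names matched the reference table.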

Additional observations from a re-analysis of the deposited data

Results flagged for a closer look

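Of 28 sets of 8 libraries (7 genes in 4 diets), 4 held a library whose gap to its nearest neighbour, as a share of the set's range on the log2 scale, was above Dixon's 95% critical value. Chance flags about 1 in 20 such sets. APOA4 stood at 4943 TPM in control replicate 1 (next 922) and at 4869 TPM in 18 g/kg replicate 7 (next 894). APOB was lowest in control replicate 7, at 170 TPM (next 303). APOC3 was highest in 1.8 g/kg replicate 1, at 15271 TPM (next 11437).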

How the results depend on the processing

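Limma called 0 members under every alternative run, and the lowest adjusted p of a member was 0.404 (APOC3 at 9 g/kg, without control replicate 7). The fit with a replicate block also called 0 members, with APOC3 at 9 g/kg at -0.38 (adjusted p = 0.729 by limma). Over 48 same-numbered pairs of libraries the correlation of deviations ran from -0.31 to 0.37, and 18 pairs were above 0.1. The median was 0.030, against -0.0067 between other numbers. Of 32 libraries 6 correlated best with their own number, with no chance level set beside that count. The labels state no pairing, and the numbers were not taken as pairs in the main fit. No difference that turned sign had passed. Median-ratio rescaling gave -0.0051 for TM6SF2 at 18 g/kg, rescaling without mitochondrial transcripts gave 0.0055 for APOC3 at 1.8 g/kg and 0.012 for the slope of APOB, and HINTW as covariate (at 0 in 20 of 32 libraries) gave -0.016 for APOB at 18 g/kg. With single libraries left out, APOA4 ran from -0.11 to 0.55 at 1.8 g/kg, -0.58 to 0.16 at 9, -0.48 to 0.32 at 18 and -0.58 to 0.047 in slope. APOB ran from -0.071 to 0.14 at 1.8 g/kg, -0.12 to 0.11 at 18 and -0.11 to 0.053 in slope. APOC3 ran from -0.090 to 0.019 at 1.8 g/kg and -0.011 to 0.10 in slope, and TM6SF2 from -0.11 to 0.16 at 18 g/kg and -0.0075 to 0.23 in slope. Correlations that turned sign were all uncalled. Under median-ratio rescaling they were APOA4 and MTTP (-0.14), APOB and APOC3 (-0.085), APOB and TM6SF2 (-0.17), APOH and MTTP (0.11), APOH and TM6SF2 (0.0068) and MTTP and TM6SF2 (-0.13). Without mitochondrial transcripts they were APOB and APOC3 (-0.028), APOB and TM6SF2 (-0.017) and MTTP and TM6SF2 (-0.024), and without control replicate 7 the same 3 pairs gave -0.087, -0.071 and -0.034. Calls were lost under median-ratio rescaling for APOA1 and APOA4 (0.43), APOA4 and TM6SF2 (0.45) and APOB and APOH (-0.29), and the cause was not tested. Leaving out single libraries, an alternative chosen after the correlations had been seen, gave 0.47 to 0.59 for APOA1 and APOA4, 0.44 to 0.62 for APOA1 and APOC3, 0.49 to 0.61 for APOA4 and TM6SF2 and -0.55 to -0.38 for APOB and APOH. TPM carry no depth, so counting error could not be set apart from other variation between libraries.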

Other observations

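Genes of the pathway lists also varied with single members, as a description over the 32 libraries after removal of diet means. Those below were named for a high r. CIDEC, a lipid droplet protein, had r = 0.82 with APOA4 and ran from 12.7 to 330 TPM, highest in control replicate 1, where APOA4 was highest too. The transcription factor gene PPARA had r = 0.77 with APOB, and FOXO1 and RORA had r = 0.73 with it. The lowest library of PPARA, FOXO1 and RORA was in control each time (11.65, 2.21 and 0.61 TPM). How far these r rest on control replicate 7, where APOB was lowest, was not tested. The 5 genes most like APOB were closer, at r = 0.87 to 0.90, and regulation of APOB by these factors was not tested.

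APOV1, a protein of laying hen particles, reached 216 TPM in 1.8 g/kg replicate 7, 174 in 9 g/kg replicate 3 and 73.0 in 18 g/kg replicate 2, against a control maximum of 13.3 TPM. These were single high libraries. The median was 1.025 TPM in control and 0.165, 3.54 and 1.005 TPM at 1.8, 9 and 18 g/kg. Limma did not call APOV1 at any dose. MTTPL, a gene named after MTTP and chosen after its values were seen, ran from 10.3 to 76.6 TPM.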
